A study of Mus musculus with 7 samples.

Results

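The promoters of 10 genes of epithelial-mesenchymal transition, Snai1, Snai2, Twist1, Zeb1, Zeb2, Cdh1, Cdh2, Vim, Acta2 and S100a4, were examined for DNaseI accessibility in cultured mouse podocytes. A promoter was the stretch of 500 nt on either side of any start site (TSS) of a protein-coding transcript in GENCODE vM21, and a peak belonged to a gene when it overlapped that stretch by at least 1 bp. The 10 genes, of 21853 protein-coding genes examined, have 34 of the 54361 TSSs. They were overlapped by 23 of 1036304 peaks under NG, 18 of 846027 peaks under HG+NT and 20 of 900109 peaks under HG+miR-93. DNaseI cuts chromatin that nucleosomes leave free, so cut ends pile up at open promoters and enhancers. NG podocytes were held at 5 mM glucose. HG+NT podocytes were held at 25 mM glucose and transfected with a non-targeting mimic at 50 nM. HG+miR-93 podocytes had the same glucose and a mimic of miR-93 at the same dose. Each treatment lasted 36 h and had 2 replicates. The cells of all 3 conditions came from conditionally immortalised podocytes in culture, a line which divides under a temperature-sensitive viral oncogene and was differentiated at the temperature that switches it off, and all were deprived of serum before treatment. The labels name no mimic for NG, so that glucose and transfection cannot be told apart in HG+NT against NG. Genomic DNA cut with less DNaseI, 1 sample, was the input. Each condition has 1 deposited list of peaks, made from its replicates jointly. There is thus no spread between replicates to set a difference against, no test between conditions was run, and every interval below covers counting error only.

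Epithelial-mesenchymal transition is the programme by which epithelial cells loosen their junctions and take on features of motile, matrix-producing cells. The zinc finger factors Snai1, Snai2, Zeb1 and Zeb2 and the helix-loop-helix factor Twist1 are known to drive it, in large part by binding E-boxes, short motifs read as CAGGTG, and repressing Cdh1. Cdh1 encodes E-cadherin of epithelial junctions and Cdh2 encodes N-cadherin, which takes its place. Vim (vimentin), Acta2 (alpha smooth muscle actin) and S100a4 (a calcium-binding protein also called fibroblast-specific protein) mark the mesenchymal state. Podocytes are specialised epithelial cells that normally contain vimentin, and gain of mesenchymal markers by podocytes has been described in diabetic kidney disease. The miRNA of the mimic carries the seed shared by the miR-17 family, which pairs with target mRNAs. Its mature strand in RefSeq lies at chr5:138165574-138165596 on the minus strand of GRCm38.p6, and is shown with the seed, bases 2 to 8, in capitals:
mmu-miR-93-5p: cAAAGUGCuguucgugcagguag

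RefSeq promoter stretches of 300 bases, 250 before and 50 after a start, were matched for 6 of the 10 genes, with 9 starts in all, 4 of them for Zeb2. Snai2, Zeb1, Cdh1 and Cdh2 are named only. The stretches spanned a wide range of CpG content. The observed over expected CpG ratio was 0.925 at Snai1, 0.827 at Twist1, 0.420 to 0.690 at Zeb2, 0.421 at Vim, 0.270 at Acta2 and 0.0871 at S100a4, with a median of 0.384 over all 32851 stretches. Snai1 thus had a higher ratio than 89.2% of stretches and S100a4 a higher ratio than 11.5%. The upstream 250 bases of these ends of the range are shown on the plus strand of GRCm38.p6. No annotated exon lies in either. At Snai1, chr2:167537945-167538194, the capitals mark the 1 match to CAGGTG, which lies on the opposite strand 126 nt before the start. At S100a4, chr3:90603520-90603769, the capitals mark TATAAA at 31 nt before the start:
Snai1: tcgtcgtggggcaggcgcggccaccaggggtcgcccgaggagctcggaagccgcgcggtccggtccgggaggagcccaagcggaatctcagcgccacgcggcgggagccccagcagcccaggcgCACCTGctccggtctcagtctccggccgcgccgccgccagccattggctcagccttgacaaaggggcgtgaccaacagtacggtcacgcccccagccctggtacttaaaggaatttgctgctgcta
S100a4: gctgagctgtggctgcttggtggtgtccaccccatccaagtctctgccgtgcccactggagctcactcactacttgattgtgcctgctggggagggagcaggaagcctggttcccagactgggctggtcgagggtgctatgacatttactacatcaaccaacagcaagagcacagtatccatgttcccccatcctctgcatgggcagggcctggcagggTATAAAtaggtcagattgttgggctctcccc

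Both strands of the 9 stretches were searched for 5 motifs, with overlapping matches counted, and no match overlapped one of another motif. CAGGTG, which the factors of the list are known to bind, was found at Snai1 only among the 6 genes, and in 20.2% of all stretches. TATAAA was found at Vim, S100a4 and Twist1, 32, 31 and 126 nt before the start, and in 13.6% of all stretches. GGGCGG, the GC box, was found at Twist1 and at 3 of the 4 Zeb2 starts, of which a pair share 1 site, and in 35.7% of all stretches. TGANTCA, the AP-1 motif, was found at 1 Zeb2 start, 189 and 132 nt before it, and in 7.81% of all stretches. The CArG box of serum response factor was searched only in its strict form, CC, then A or T at 6 positions, then GG. No match to this form was found in the 9 stretches, and 1.63% of all held one, while near matches were not counted. Motif distances are from the RefSeq start, which is not always a GENCODE TSS, from which summits are placed below. At Vim the RefSeq start was 13574311, and the GENCODE TSSs ran from 13573927 to 13574281. At Acta2 it was 34255373, and the GENCODE TSSs were 34254230 and 34255590. A match is a description of the letters and not of binding.

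A pair of values was taken for each gene from its strongest promoter peak, the one with the highest fold. The fold is the pileup at the summit, that is the scaled number of fragments covering it, over the local mean of the input, with 1 added to both. It was ranked among the 21835 genes with a promoter peak in all 3 lists, and is given as a percentile within its list. The pileup itself was recovered from the fold and p of the peak, and has a 95% exact Poisson interval. Its unit, 1 fragment scaled to the input, was worth 0.447 under NG, 0.260 under HG+NT and 0.194 under HG+miR-93, so the NG list was the shallowest. Strongest member summits held 7 to 20 fragments under NG, 17 to 40 under HG+NT and 16 to 55 under HG+miR-93. The peak lists were permissive, with a largest p of 0.900 for a listed peak. A promoter peak with a −log10 p of at least 2 was found for 3 members in each list. These were Snai2, Cdh2 and Vim under NG, and Cdh2, Vim and Acta2 under HG+NT and under HG+miR-93. Of all genes, 28.5% had one under NG, 18.5% under HG+NT and 13.8% under HG+miR-93. The −log10 q of strongest member peaks was 0 except for Vim under HG+NT, at 0.0828.

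As a check of the cells, 10 podocyte genes had median percentiles of 79.99 under NG, 77.0 under HG+NT and 66.7 under HG+miR-93, with a range of 9.99 to 98.3 under NG, 13.6 to 96.7 under HG+NT and 34.5 to 92.8 under HG+miR-93. For 14 genes of mesangial, endothelial, proximal tubule and white blood cells the medians were 46.4, 53.7 and 61.1, with ranges of 4.26 to 98.7, 2.26 to 94.0 and 5.65 to 87.8. The defining slit diaphragm gene Nphs1 (nephrin) was not high throughout, at 9.99, 55.0 and 64.1. The part of other cells in the values below was not tested. In such bulk chromatin, fewer cells with an open promoter and a promoter less open in every cell cannot be told apart.

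**Figure D1:**
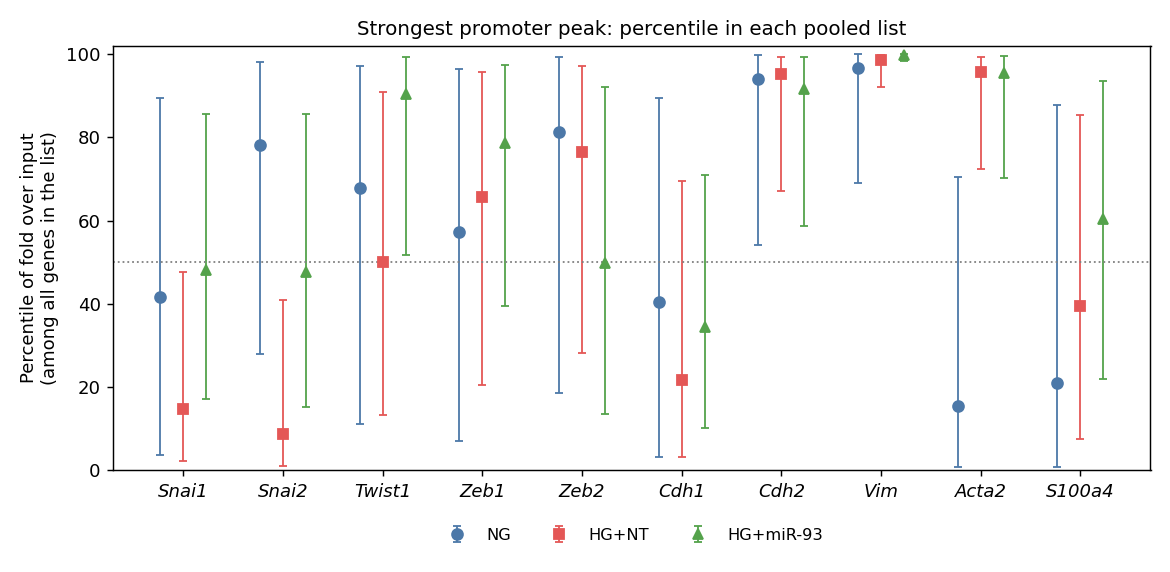
Percentile of the fold of the strongest promoter peak among 21835 genes (vertical axis) for the 10 genes in the pooled lists of NG (circles), HG+NT (squares) and HG+miR-93 (triangles), with 95% counting intervals and a dotted line at percentile 50. Vim and Cdh2 are above 90 in each list, and Acta2 is at 15.5 under NG and above 95 in both high glucose lists.

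The mesenchymal effectors were led by Vim (ENSMUSG00000026728.9, chr2:13573927-13582826, plus strand of mm10), the highest member in each list. The percentile of Vim was 96.7 under NG, 98.7 under HG+NT and 99.9 under HG+miR-93, and its counting interval ran from 69.0 to 99.9, from 92.1 to 99.8 and from 98.4 to 100. The pileup was 8.93 under NG (95% interval 5.46 to 13.8), 10.4 under HG+NT (7.42 to 14.1) and 10.7 under HG+miR-93 (8.05 to 13.9). These intervals overlap throughout, and the ratio of HG+NT to NG was 1.16 (0.664 to 2.10). The summits of the 3 lists lay within 69 nt of each other, 70, 126 and 57 nt before the nearest TSS, in an untranslated exon of a transcript that starts upstream. Vim and Snai2 were the 2 members whose summits lay within 150 nt of each other over all lists, as did those of 12.5% of all genes. Of the 10 genes, Vim had the smallest spread of percentile over lists, 3.20 points, and the closest summits. Ranked by pileup, it was higher by 20.9 points under HG+miR-93 than under NG. The stretches under its summits and around its TATA motif are shown. They are on the plus strand of chr2 in GRCm38.p6, at 13574203-13574232, 13574141-13574170 and 13574267-13574296, with the summit bases or the motif in capitals:
Vim, NG and HG+miR-93 summits: ctttccggGtccccattggctGgctcgctc
Vim, HG+NT summit: taccctacagccctGgaggaaggctcgagg
Vim, TATA box: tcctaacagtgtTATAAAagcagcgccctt

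Acta2 (ENSMUSG00000035783.9, chr19:34241090-34255590, minus strand) had the largest difference between lists. Its percentile was 15.5 under NG, 95.8 under HG+NT and 95.5 under HG+miR-93, a rise of 80.4 points from NG to HG+NT and a change of −0.291 points from HG+NT to HG+miR-93. The high level in 25 mM glucose was thus present with both mimics. Of all genes, 99.6% had a smaller signed change from NG to HG+NT. The counting interval of the percentile ran from 0.769 to 70.4 under NG, from 72.5 to 99.4 under HG+NT and from 70.2 to 99.7 under HG+miR-93, so the intervals of NG and HG+NT did not overlap and those of NG and HG+miR-93 did by a narrow margin. Acta2 was the 1 member with such a gap, which 2.19% of all genes had from NG to HG+NT, against 2.83% between the high glucose lists and 2.82% from NG to HG+miR-93. The gap was looked for after the values had been seen and holds the input's mean fixed.

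The pileup of Acta2 differed less than its percentile. It was 5.81 under NG (3.09 to 9.93), 8.31 under HG+NT (5.68 to 11.7) and 6.996 under HG+miR-93 (4.90 to 9.69), with ratios to NG of 1.43 (0.731 to 2.97) under HG+NT and 1.20 (0.624 to 2.48) under HG+miR-93. Both ratio intervals include 1. The input's mean at the summit was 4 under NG and 2.20 and 2 in the others, and the summits were not at 1 place. Under NG it lay in an intron, 442 nt after the inner TSS, and under HG+NT and HG+miR-93 in an untranslated exon, 47 and 128 nt after the outer TSS. These high glucose summits lie before the RefSeq start used for the motif search. The NG peak spanned the outer TSS too, but the list gives no pileup away from a summit. Genes on chromosome 19 had median percentiles of 54.1, 68.3 and 68.1, and the change of Acta2 exceeded the median change of its chromosome by 71.5 points under HG+NT. The stretches under the summits of both high glucose lists are shown, with the summit base in capitals. They are on the minus strand of chr19 in GRCm38.p6, at 34255528-34255557 and 34255447-34255476:
Acta2, HG+NT summit: agcagctgagctgcCtcctgtttcgggagc
Acta2, HG+miR-93 summit: gagagttttgtgctGaggtccctatatggt

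S100a4 (ENSMUSG00000001020.8, chr3:90603771-90606045, plus strand) was in the lower or middle part of each list. It was at percentile 21.0 under NG, 39.5 under HG+NT and 60.3 under HG+miR-93. Its pileups were 3.13 (1.26 to 6.44), 4.41 (2.57 to 7.07) and 4.86 (3.14 to 7.17), and the intervals overlapped. Under NG, 3 small peaks covered the region, and the strongest had its summit 1170 nt after a TSS, beyond the end of the gene. The other lists had 1 peak, with summits 22 nt apart in an intron, 314 and 292 nt before the inner TSS. Within 10000 nt of S100a4, the 1 peak per list with a −log10 p of at least 2 was at the neighbouring S100a6, another calcium-binding protein of the family, with summits 148, 135 and 186 nt before its TSS. The pileup there was 8.04 (4.76 to 12.7) under NG, 9.87 (6.98 to 13.5) under HG+NT and 7.97 (5.72 to 10.8) under HG+miR-93.

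**Figure D2:**
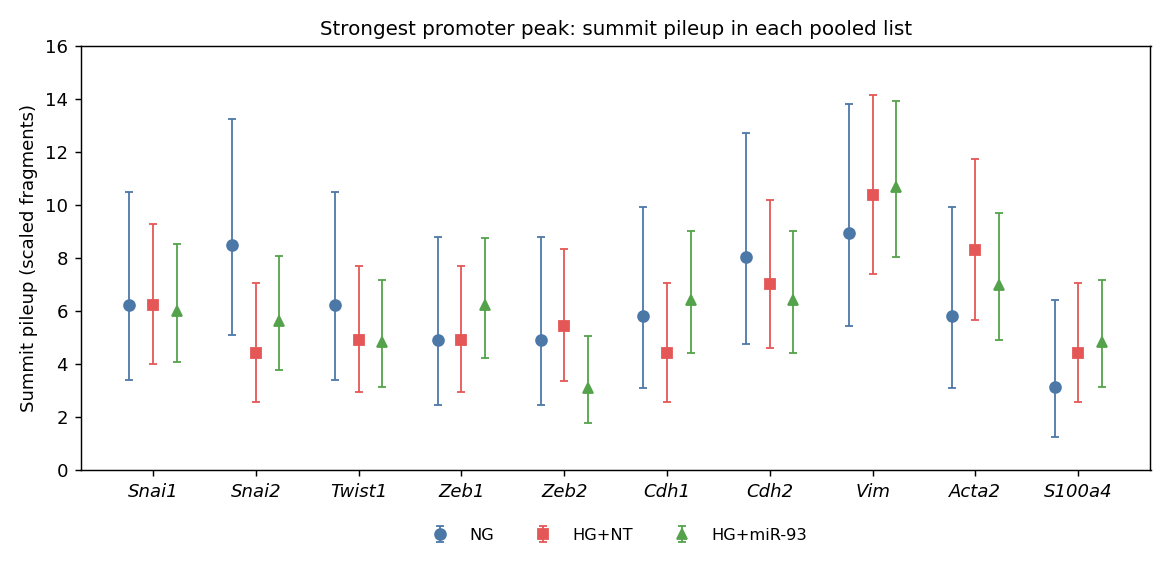
Summit pileup in fragments scaled to the input (vertical axis, linear, from 0) of the strongest promoter peak of the 10 genes under NG (circles), HG+NT (squares) and HG+miR-93 (triangles), with 95% exact Poisson intervals. For each gene the intervals of the 3 lists overlap, and Vim has the highest pileup in each list.

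The cadherins stood at different percentiles. Cdh2 (ENSMUSG00000024304.14, chr18:16588877-16809246, minus strand) was at percentile 94.0 under NG (interval 54.3 to 99.9), 95.3 under HG+NT (67.1 to 99.4) and 91.7 under HG+miR-93 (58.8 to 99.3). Its pileups were 8.04 (4.76 to 12.7), 7.01 (4.62 to 10.2) and 6.41 (4.41 to 9.01), and its summits lay in an untranslated exon 685, 352 and 695 nt after the TSS. N-cadherin was thus among the most accessible promoters of the 10 genes in all conditions, with a spread over lists of 3.60 points. This held for peaks taken by overlap. With summits required in the promoter, its NG and HG+miR-93 peaks at 685 and 695 nt dropped out. Cdh2 was then higher under HG+NT than under NG by 85.6 points, and changed by −62.4 points from HG+NT to HG+miR-93.

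Cdh1 (ENSMUSG00000000303.12, chr8:106603351-106670246, plus strand) was lower, at percentile 40.6 under NG (3.11 to 89.4), 21.7 under HG+NT (3.17 to 69.6) and 34.5 under HG+miR-93 (10.2 to 71.1). Its pileups were 5.81 (3.09 to 9.93), 4.41 (2.57 to 7.07) and 6.41 (4.41 to 9.01), and its summits lay 11 nt before and 332 and 180 nt after the TSS. The intervals of E-cadherin overlap in all pairs of lists, and no change reached 20 points when ranked by fold. Ranked by pileup, Cdh1 was higher under HG+miR-93 by 32.2 points than under HG+NT and by 20.9 points than under NG, and ranked by −log10 p it was higher than under HG+NT by 20.1 points. Genes on chromosome 8 had median percentiles of 50.9, 72.6 and 71.3, and against the median change of that chromosome Cdh1 was lower by 30.5 points under HG+NT than under NG. By pileup the cadherins were closer. The ratio of Cdh2 to Cdh1 in pileup was 1.38 (0.641 to 3.07) under NG, 1.59 (0.835 to 3.11) under HG+NT and 1.00 (0.598 to 1.67) under HG+miR-93, so they did not differ beyond counting error. The ratio of Vim to Cdh1 was 1.54 (0.728 to 3.37) under NG, 2.35 (1.30 to 4.43) under HG+NT and 1.67 (1.06 to 2.65) under HG+miR-93. Its interval lies above 1 in both high glucose lists and includes 1 under NG, where the ratio itself was close to that under HG+miR-93. The NG ratio rests on fewer fragments, 13 for Cdh1 and 20 for Vim, against 33 and 55 under HG+miR-93. Beyond the promoter, the stretch from 10000 nt before to 10000 nt after Cdh1 held no peak with a −log10 p of at least 2 under NG and 2 each under HG+NT and HG+miR-93. The HG+NT summits lay 37715 and 67111 nt from the gene's start and the HG+miR-93 summits 16765 and 46223 nt from it, so none coincided.

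Of the transcription factors, Snai2 (ENSMUSG00000022676.7, chr16:14705852-14709385, plus strand) had the largest change between lists. It encodes the Snail family factor Slug, and had a single promoter peak in each list, with summits 267, 386 and 317 nt before the TSS. Its percentile was 78.3 under NG (28.1 to 98.1), 8.81 under HG+NT (1.06 to 40.9) and 47.7 under HG+miR-93 (15.1 to 85.7), a fall of 69.5 points followed by a rise of 38.9. Of all genes, 1.28% had a smaller signed change from NG to HG+NT. The pileups were 8.49 (5.11 to 13.3), 4.41 (2.57 to 7.07) and 5.64 (3.77 to 8.09), at input means of 3, 4 and 3. The ratio of HG+NT to NG was 0.520 (0.254 to 1.06) and that of HG+miR-93 to HG+NT 1.28 (0.678 to 2.48), so neither excluded 1. Snai2 was low under HG+NT and between the levels of NG and HG+NT under HG+miR-93.

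Snai1 (ENSMUSG00000042821.7, chr2:167538195-167542814, plus strand) encodes the factor Snail. It was at percentile 41.6 under NG (3.77 to 89.4), 14.7 under HG+NT (2.17 to 47.7) and 48.3 under HG+miR-93 (17.2 to 85.7). Its pileups were nearly equal, at 6.25 (3.42 to 10.5), 6.23 (3.99 to 9.27) and 6.02 (4.09 to 8.55), at input means of 3.20, 5 and 3.20. Between these strongest peaks, which lie at different places, the low percentile under HG+NT came with a higher input mean and not with a lower pileup. The HG+NT summit was not at the promoter, but 5337 nt after the TSS and beyond the end of the gene, in a peak of 7174 bp. The second HG+NT peak had its summit 201 nt before the TSS, with a pileup of 4.41 (2.57 to 7.07) at an input mean of 3.8. This pileup is lower than those of the strongest NG and HG+miR-93 peaks, with overlapping intervals. The summit of this second peak and the HG+miR-93 summit, 89 nt before the TSS, lie in the Snai1 sequence shown above. The NG summit, 377 nt before the TSS, lies upstream of that sequence.

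Twist1 (ENSMUSG00000035799.6, chr12:33957671-33959829, plus strand) was at percentile 67.8 under NG (11.2 to 97.2), 50.2 under HG+NT (13.2 to 90.9) and 90.4 under HG+miR-93 (51.7 to 99.4). Its pileups were 6.25 (3.42 to 10.5), 4.93 (2.97 to 7.71) and 4.86 (3.14 to 7.17). The HG+miR-93 percentile was thus the highest with the lowest pileup, at an input mean of 1.43 against 2.40 in the other lists. The summits under NG and HG+NT lay 441 and 448 nt after the TSS in the coding exon, and under HG+miR-93 444 nt before the TSS.

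Zeb1 was highest and Zeb2 lowest under HG+miR-93. Zeb1 (ENSMUSG00000024238.15, chr18:5591860-5775467, plus strand) was at percentile 57.3 under NG (7.18 to 96.3), 65.6 under HG+NT (20.6 to 95.8) and 78.7 under HG+miR-93 (39.4 to 97.5), with pileups of 4.91 (2.45 to 8.79), 4.93 (2.97 to 7.71) and 6.22 (4.25 to 8.78). Its summits were intronic, 603 nt before and 351 and 264 nt after a TSS. Zeb2 (ENSMUSG00000026872.17, chr2:44983632-45117395, minus strand) was at percentile 81.3 under NG (18.7 to 99.3), 76.4 under HG+NT (28.2 to 97.3) and 49.8 under HG+miR-93 (13.5 to 92.2), with pileups of 4.91 (2.45 to 8.79), 5.45 (3.38 to 8.34) and 3.11 (1.78 to 5.05). Zeb2 has 17 TSSs and 6, 7 and 9 promoter peaks, and its strongest summits were not at 1 promoter. Under NG and HG+miR-93 they lay in an intron 2038 and 1497 nt before an inner TSS, and under HG+NT in a coding exon 164 nt after another TSS, 85668 nt from the HG+miR-93 summit. Under HG+miR-93 the second peak of Zeb2, 291 nt after a TSS of the outer group, had the larger pileup, 5.64 (3.77 to 8.09), at an input mean of 3. The pileup ratio of Zeb2 to Zeb1 was 1.00 (0.393 to 2.54) under NG, 1.11 (0.566 to 2.17) under HG+NT and 0.50 (0.256 to 0.938) under HG+miR-93. Its interval lies below 1 under HG+miR-93, between these strongest peaks.

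**Figure D3:**
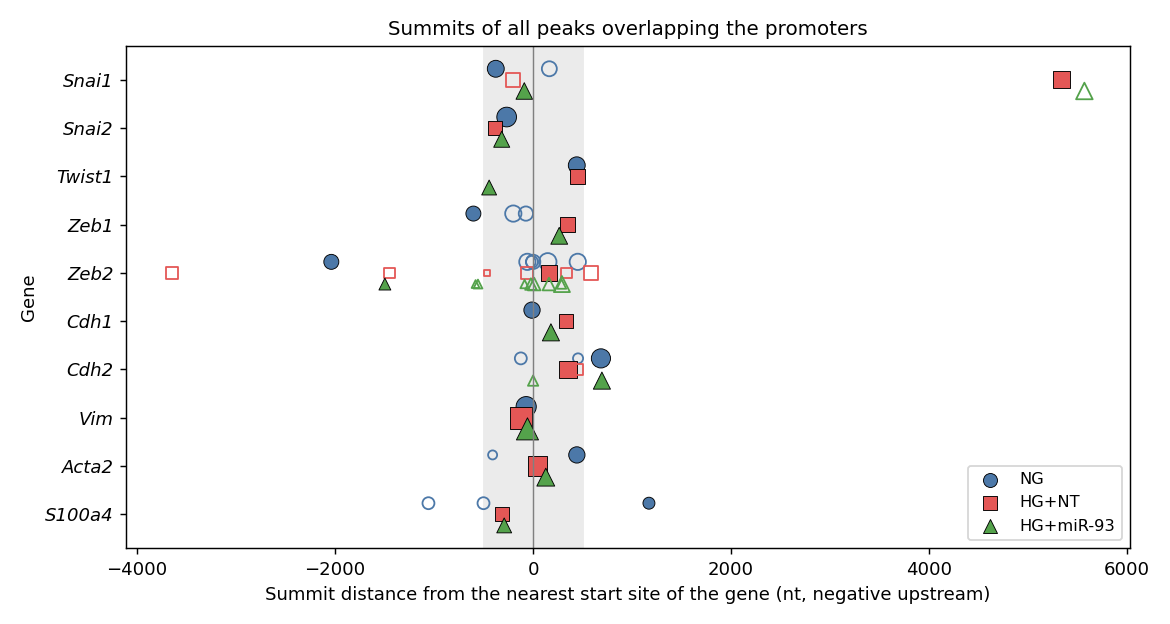
Distance in nt from the nearest TSS of the gene (horizontal axis, negative upstream) of the summits of every peak overlapping a promoter of the 10 genes, under NG (circles), HG+NT (squares) and HG+miR-93 (triangles). Filled marks are the strongest peak of each gene and list, open marks the others, the area of a mark is proportional to the pileup and the grey band is the promoter; Vim has all summits within 69 nt, whereas the strongest HG+NT peak of Snai1 lies 5337 nt downstream.

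The order of the genes differed between lists. By percentile it was Vim, Cdh2, Zeb2, Snai2, Twist1, Zeb1, Snai1, Cdh1, S100a4 and Acta2 under NG, and Vim, Acta2, Cdh2, Zeb2, Zeb1, Twist1, S100a4, Cdh1, Snai1 and Snai2 under HG+NT. Under HG+miR-93 it was Vim, Acta2, Cdh2, Twist1, Zeb1, S100a4, Zeb2, Snai1, Snai2 and Cdh1. Vim thus headed every list, and the counting intervals of all neighbours in these orders overlapped. The median percentile of the 10 genes was 62.5 under NG, 57.9 under HG+NT and 69.5 under HG+miR-93, and 6 of the 10 were at or above 50 in each. Between 6 and 9 of the 10 strongest summits lay within 500 nt of a TSS, namely 6 under NG, 9 under HG+NT and 8 under HG+miR-93. The share over all genes was not computed, so these counts cannot be read as particular to the 10 genes.

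The comparison of HG+NT with NG addresses high glucose with a control mimic. A difference of 20 percentile points or more was counted as a change. Acta2 was higher, and Snai1 and Snai2 were lower. Thus 1 of 10 was higher, against 24.6% of all genes, and 2 of 10 were lower, against 24.6%. The other 7 changed by less than 20 points, from −18.8 for Cdh1 to 18.5 for S100a4. The median change of the 10 was −1.74 points and that of all genes 0.0916, and the median size of a change 18.1 against 19.5 points. With the pileups of their strongest peaks ranked, the median change of the 10 was 8.64 points. Pileup intervals that did not overlap were found for 0 of 10, against 2.91% of all genes. Ranked by pileup in place of fold, Snai1 was higher by 11.3 points, so its direction turned. That ranking took the HG+NT summit 5337 nt after the TSS. With summits required in the promoter, Snai1 changed by −24.2 points. The fall of Snai1 stayed past 20 points in 4 of 7 alternatives. With the folds of all promoter peaks summed, Zeb1 changed by −45.3 and S100a4 by −48.5 points, in the direction opposite to that of their strongest peaks. Each of these genes had 3 promoter peaks under NG and 1 under HG+NT, so the sums cover unlike numbers of peaks.

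The comparison of HG+miR-93 with HG+NT addresses the miR-93 mimic in high glucose. Snai1, Snai2, Twist1 and S100a4 were higher and Zeb2 was lower. Thus 4 of 10 were higher, against 20.05% of all genes, and 1 of 10 was lower, against 20.1%. The rises were 33.6 points for Snai1, 38.9 for Snai2, 40.2 for Twist1 and 20.8 for S100a4, and Zeb2 fell by 26.6. The effectors Vim and Acta2 and the cadherin Cdh2, all above percentile 90 in both lists, changed by 1.20, −0.291 and −3.60 points, the last by −62.4 with summits required in the promoter. The median change of the 10 was 12.9 points against 0.0321 for all genes, but 3.58 points with the pileups of their strongest peaks ranked. Pileup intervals that did not overlap were found for 0 of 10, against 2.33% of all genes. Pileup ratios ran from 0.570 for Zeb2 to 1.45 for Cdh1. The interval of each of these ratios includes 1. S100a4 was just inside the limit of 20 points, and the next rise, that of Zeb1, was 13.1. The rise of Snai1 was 1.30 points by pileup, 11.6 with promoters of 1000 nt either side and 15.8 with summed folds, and stayed past 20 points in 4 of 7 alternatives. That of S100a4 stayed past it in 3 of 6 and was as low as 8.18. With the peak of highest pileup taken for each gene, Twist1 changed by −1.04 and Zeb2 by 4.90 points, so their directions turned. For Zeb2 this took other peaks under NG and HG+miR-93. With the pileups of the strongest peaks by fold ranked instead, Twist1 changed by 0.224 points and Zeb2 fell by 41.6.

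Against NG, HG+miR-93 had Twist1, Zeb1, Acta2 and S100a4 higher by 22.6, 21.5, 80.1 and 39.3 points, and Snai2, which fell by 30.6, and Zeb2, which fell by 31.5. Thus 4 of 10 were higher, against 25.2% of all genes, and 2 of 10 were lower, against 25.4%, and pileup intervals that did not overlap were found for 0 of 10, against 3.81%. With the folds of all promoter peaks summed, Zeb1 and S100a4 fell by 36.4 and 36.3 points in place of their rises. Here too the sums cover 3 peaks under NG and 1 under HG+miR-93. The fall of Zeb2 stayed past 20 points in 2 of 7 alternatives. It turned to 3.57 points with the peak of highest pileup, 0.664 with summed folds and 3.08 with summits required in the promoter, but was −28.0 with the pileups of the strongest peaks ranked. Twist1 was at −6.59 and −4.47 points in the pileup rankings. HG+NT was the highest or the lowest of the 3 lists for 6 of the 10, against 61.99% of all genes. It was lowest for Snai1, Snai2, Twist1 and Cdh1 and highest for Cdh2 and Acta2. Since the comparisons share lists, these counts are not independent of each other. With 10 genes, none of these counts allows a firm reading against its background.

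**Figure D4:**
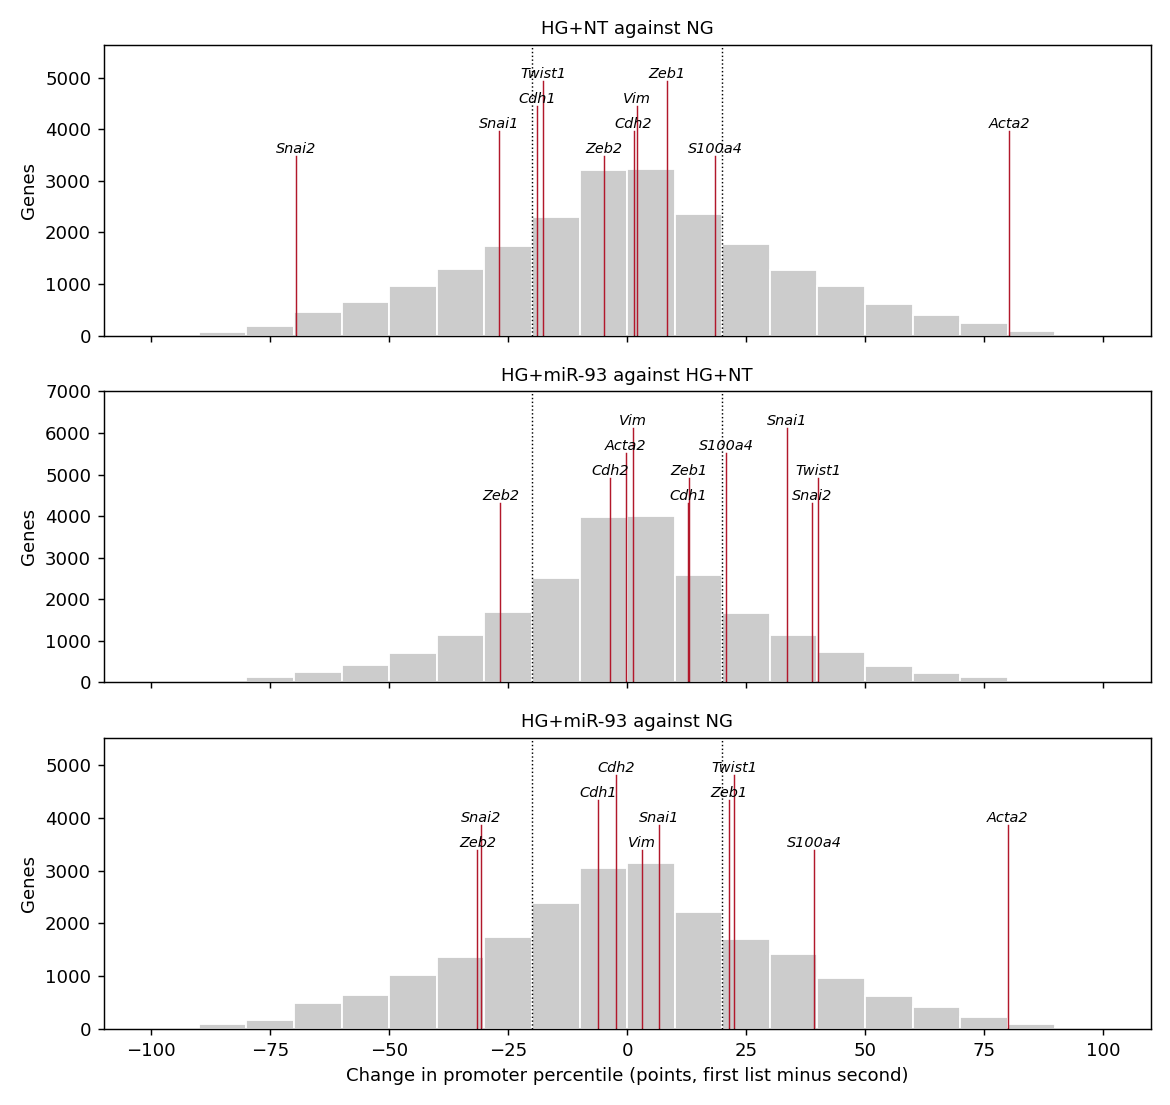
Number of genes (vertical axis) by the change in promoter percentile in points (horizontal axis, bins of 10 points), over 21835 genes, for the 3 comparisons, with the 10 genes as labelled lines whose heights carry no value and dotted lines at 20 points either way. Most of the 10 genes lie in the body of the distribution, and Acta2 at 80.4 and Snai2 at −69.5 points lie in its tails in HG+NT against NG.

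The other genes of the programme were taken from a list of 22 epithelial genes and a list of 28 mesenchymal genes, all with a promoter peak in each condition. In both comparisons below, the median of the changes of single genes was less than 5 points either way in each list. The epithelial genes had median percentiles of 55.9 under NG, 54.4 under HG+NT and 55.9 under HG+miR-93, with a median change of −1.68 from NG to HG+NT and −3.39 with the miR-93 mimic. Of the 22, 5 were higher and 6 lower by 20 points in the first comparison, and 5 were higher and 5 lower in the second. Over all genes the shares were 24.6% either way in the first, and 20.05% higher and 20.1% lower in the second, so these counts were near the background. The mesenchymal genes had median percentiles of 70.2, 65.3 and 73.4 and median changes of 2.66 and 0.553. Of the 28, 6 were higher and 7 lower in the first comparison, and 6 and 7 in the second, again near those shares. Ranked by pileup, the median changes from NG to HG+NT were 5.96 for the epithelial and 9.70 for the mesenchymal genes.

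Within the epithelial list, Cdh3, which encodes P-cadherin, had the largest rise with high glucose. It was at percentile 7.86 under NG, 93.0 under HG+NT and 97.3 under HG+miR-93, with pileups of 6.25 (3.42 to 10.5), 7.01 (4.62 to 10.2) and 6.996 (4.90 to 9.69), and lies on chromosome 8 as Cdh1 does. Cldn3, a tight junction claudin, was at 30.7, 73.4 and 72.2. Both thus shared with Acta2 a percentile that was higher with either mimic than under NG. The pileup of Cldn3 did not follow its percentile. It was 4.47 under NG, 4.93 under HG+NT and 3.89 under HG+miR-93, with overlapping intervals. Dsp, the desmosomal plaque protein desmoplakin, was at 81.3, 1.71 and 53.5, and Ocln, the tight junction protein occludin, at 86.7, 19.4 and 64.8. Both percentiles were low under HG+NT, as that of Snai2 was. The pileups were 4.91, 3.64 and 3.89 for Dsp, and 5.36, 4.15 and 3.69 for Ocln, which was thus lowest under HG+miR-93. Their intervals overlapped between lists. With the miR-93 mimic the largest rises were those of Esrp1, an epithelial splicing regulator, from 14.2 to 72.2, and Krt19, a keratin, from 28.6 to 81.2. The largest falls were those of Ovol1, a zinc finger factor of epithelia, from 83.2 to 15.5, and Epcam, an epithelial adhesion molecule, from 79.4 to 41.2. The pileup of Ovol1 was nearly level, at 6.49 (4.20 to 9.58) and 6.22 (4.25 to 8.78).

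Within the mesenchymal list, Snai3, a further Snail family gene, was at percentile 3.07 under NG, 47.5 under HG+NT and 92.0 under HG+miR-93, and was thus among the largest rises in both comparisons. Its pileup was nearly level, at 7.15 (4.08 to 11.6), 7.53 (5.04 to 10.8) and 6.996 (4.90 to 9.69). Cdh11, a mesenchymal cadherin, was at 60.2, 89.3 and 57.9, with its lowest pileup, 6.49, under HG+NT against 7.15 and 7.97. Lox, a collagen cross-linking enzyme, was at 86.7, 11.3 and 54.9, and Des, the intermediate filament protein desmin, at 81.3, 19.98 and 69.3. Both percentiles were low under HG+NT, but the pileup of Des was highest there, at 4.91 (2.45 to 8.79), 5.45 (3.38 to 8.34) and 4.86 (3.14 to 7.17). The largest falls with the miR-93 mimic were those of Itga5 and Tgfb1. Itga5, an integrin subunit that binds fibronectin, fell from 89.3 to 54.3, with pileups of 6.49 and 6.02. Tgfb1, a growth factor that induces the transition, fell from 65.0 to 31.2, with pileups of 6.49 and 6.22.

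Outside the promoters, peaks with a −log10 p of at least 2 near the 10 genes were few. The genes with 10000 nt on either side spanned 840627 nt in all and held 429 peaks under NG, 371 under HG+NT and 382 under HG+miR-93, of which 7, 6 and 6 were of this strength. Without the peaks at the members' own promoters, 4, 3 and 3 remained, of which 1 in each list was at the S100a6 promoter. Outside the promoters of all protein-coding genes there were 3 under NG, 2 under HG+NT and 2 under HG+miR-93. These were 0.744%, 0.571% and 0.556% of the peaks there, against 0.604%, 0.502% and 0.516% of all peaks outside promoters. Peaks of this strength with summits within 150 nt over all 3 lists were those of Vim and of S100a6. The Acta2 summits of both high glucose lists were 81 nt apart, and the Cdh2 summits of NG and HG+miR-93 were 10 nt apart. Snai1, Twist1 and Zeb1 had none in any list. Intronic summits of this strength were found under NG at Zeb2, 76240 nt after the gene's start, as well as at Cdh2, 157334 and 201520 nt after it, and neither high glucose list had a peak of this strength within 150 nt of them.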

How the data were processed

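DNase-Seq was done on podocytes in 3 conditions with 2 replicates each and 1 genomic DNA input. Per the labels and the study's methods, adapters were trimmed, Bowtie placed the reads on mm10, duplicates were dropped, and MACS2 compared each condition with the input under DNase-seq settings whose values are not given in the sources used here. CASAVA 1.8.2 made the read files. The authors deposited 1 joint narrowPeak list per condition, holding a fold (the ratio of pileup plus 1 to local input mean plus 1), a −log10 p, and a −log10 q as a further score. The deposited summit position is an offset in bp. The authors compared reads around TSSs by DESeq, which was not repeated here.

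Here, fragments at the summit were solved from fold and p, with input means taken as the background (1.43) or multiples of 0.02, a grid chosen after the values were seen. A unique solution was found for 99.8% to 100% of peaks and for all member peaks. On 20000 simulated peaks per list, fragments were recovered for 99.975% or more. These peaks were made with the same formulas and with input means on the same grid. They thus check the solving step only and cannot check the grid or the formulas. Promoter overlaps in the NG list matched a direct count for 400 genes. Pileup ratios have 95% Clopper-Pearson intervals, and percentile intervals carry the Poisson interval through with the input's mean fixed. Reads are not independent molecules, so intervals cover counting error only. Depth relative to the input was 2.24 (NG), 3.85 (HG+NT) or 5.15 (HG+miR-93).

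The members and the gene lists were chosen with earlier results of these data known. Of the podocyte list, 1 gene is not reported here and was left out of its medians and ranges. All 10 genes are named, and of the other lists the 2 largest rises and 2 largest falls past 20 points in HG+NT against NG and in HG+miR-93 against HG+NT. The alternatives were other rankings, promoters, start sites, overlaps and peak thresholds, and a fold relative to the chromosome. Promoter and miRNA sequences are from RefSeq on GRCm38.p6, the build of mm10. Software was scipy 1.17.1, numpy 2.4.6, pandas 2.3.3 and matplotlib 3.10.9 under Python 3.11.15.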

Additional observations from a re-analysis of the deposited data

How the results depend on the processing

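Of the 14 member changes past 20 points, the fall of Snai2 and the rise of Acta2 in HG+NT against NG, the rise of Snai2 in HG+miR-93 against HG+NT and the rise of Acta2 in HG+miR-93 against NG stayed past it under all 7 alternatives. Their ranges were −70.7 to −31.5, 31.0 to 84.1, 21.7 to 43.5 and 27.1 to 83.2 points. The causes of the moves below were not tested. With the peak of highest pileup taken, Snai1 changed by 11.3 points in HG+NT against NG, Twist1 by −1.04 and Zeb2 by 4.90 in HG+miR-93 against HG+NT, and Twist1 by −6.59 and Zeb2 by 3.57 in HG+miR-93 against NG, all reversed. With the pileups of the strongest peaks by fold ranked, Zeb2 instead changed by −41.6 and −28.0 and Twist1 by 0.224 and −4.47 in these comparisons. The reversed value of Snai1 took an HG+NT summit 5337 nt after the TSS. With summits required in the promoter, Snai1 changed by −24.2 points in HG+NT against NG. With the peak of highest pileup, the changed members in HG+miR-93 against HG+NT were 3 in place of 5, namely Snai2, Zeb1 (20.7) and Cdh1 (32.2), and the median changes in HG+NT against NG 5.96 for the epithelial and 9.70 for the mesenchymal list. With summed folds, 2 members changed in HG+miR-93 against HG+NT and 3 in place of 6 in HG+miR-93 against NG. Zeb1 and S100a4 were then at −45.3 and −48.5 points in HG+NT against NG, Zeb2 at 0.870 and 0.664 in the other comparisons, and Zeb1 and S100a4 at −36.4 and −36.3 in HG+miR-93 against NG. Zeb1 and S100a4 had 3 promoter peaks under NG and 1 in each high glucose list, so their sums cover unlike numbers of peaks. With summits required in the promoter, 6 of 9 members changed in HG+NT against NG in place of 3, S100a4 had no value, Zeb2 was at 3.08 in HG+miR-93 against NG, and Cdh2 changed by 85.6 points in HG+NT against NG, −62.4 in HG+miR-93 against HG+NT and 23.2 in HG+miR-93 against NG. With start sites of basic transcripts, or with folds relative to the chromosome, 5 changed there, and with the former the mesenchymal median was 8.26. All 10 members had a promoter peak in each list, as did 21835 of all 21853 genes. The counts of members below are given with NG first and HG+miR-93 last. With a −log10 p of at least 2 they were 3, 3 and 3, against 28.5%, 18.5% and 13.8% of all genes. With a −log10 q of at least 2 they were 0, 0 and 0. Among the 50000 strongest peaks they were 5, 5 and 6, and among the 20000 strongest 5, 3 and 5. For the q and strongest-peak limits the share over all genes was not computed, so these counts have no background. No paired analysis was possible because each condition has 1 joint list, and for the same reason no replicate could be left out. For every member the pileup intervals of the lists overlapped, and the part of depth in this was not tested.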
